A study of Rattus norvegicus with 26 samples.

Results

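The apolipoprotein E gene and its neighbours on rat chromosome 1 were followed in liver cells and liver tissue as 8 rows of the deposited count files. The rows were selected by position and abundance. They lie between positions 80549043 and 80689171 of chromosome 1, in the coordinates of the deposited files (genome build not stated in the sources used here), and the rule keeps the 8 rows of that interval with the highest raw counts summed over all 26 libraries. The interval holds exactly 8 of the 32552 rows, so the limit on rank left out 0 rows, and the edges of the interval coincide with the ends of the outermost rows. The lowest row inside had 2759 counts in all, and there was no next row outside the limit. Because the summed counts chose the rows, their abundance is given as a description.

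The study compared rat hepatocytes before transplantation with tissue after it. Before transplantation there were 4 libraries of adult hepatocytes (here adult) and 12 of immunopurified fetal hepatocytes, in sorts labelled LAP+, LAP+/OC2+ and LAP+/OC2- with 4 libraries each; the labels do not spell out LAP or OC2. After transplantation, laser capture gave tissue of fetal-derived colonies (colony) and of the adult liver around them (host), each from the same 5 animals, numbered 242, 243, 246, 248 and 249. No group carries a genotype or drug treatment in the labels, and rat strain, exact age and time after transplantation are not stated in the sources used here. Sorted cells and captured tissue went through different RNA and library kits, so levels were compared within a stage only. Bulk RNA cannot tell fewer cells of a type from less RNA per cell.

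Apolipoprotein E is a surface protein of lipoprotein particles and a ligand through which the liver takes up their remnants by receptors of the low-density lipoprotein receptor family. The small C apolipoproteins ride on the same particles, where apolipoprotein C-II is the cofactor of lipoprotein lipase and apolipoprotein C-I slows the uptake of remnants. Hepatocytes are the main source of these proteins in plasma, and in mammals the Apoe and Apoc genes lie side by side. In the RefSeq table of assembly GRCr8, Apoe is followed on one side by Apoc1, Apoc4 and Apoc2, a long noncoding RNA and Clptm1, and on the other by Tomm40, which encodes the channel of the mitochondrial outer membrane import machinery, and by Nectin2 and Bcam, which encode cell adhesion proteins.

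Only Apoe could be named among the rows, from the identifier ENSRNOG00000018454 given in the rule. The files pair no identifier with a symbol, and the reference table matched 0 of the 32552 identifiers. That the other rows hold Apoc genes was therefore not checked, and they are called by their place. All 8 rows are on the minus strand, so neighbours at lower coordinates lie downstream of Apoe. For the same reason the labelled cell types were not checked against their markers, and a list of lipoprotein genes chosen for the purpose (apolipoproteins, remodelling enzymes, receptors and regulators) could not be tested.

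In deposited coordinates, Apoe spans chr1:80612895-80617057 with 6 exon blocks and an exonic length of 1555 nt. The first downstream neighbour, ENSRNOG00000018426, spans chr1:80606638-80609921 (4 exon blocks, 467 nt) and ends 2973 nt short of Apoe. The second downstream neighbour, ENSRNOG00000018405, spans chr1:80595326-80599572 (3 exon blocks, 530 nt). Next come the third downstream neighbour, ENSRNOG00000018402, at chr1:80589023-80594136 (4 exon blocks, 646 nt), and the fourth one, ENSRNOG00000018255, at chr1:80549043-80580662 (14 exon blocks, 2458 nt). Upstream, the first neighbour, ENSRNOG00000018556, spans chr1:80618154-80630038 (9 exon blocks, 1086 nt) and begins 1096 nt beyond Apoe. The second upstream neighbour, ENSRNOG00000018730, spans chr1:80631450-80666585 (10 exon blocks, 3234 nt) and the third, ENSRNOG00000029399, chr1:80674444-80689171 (15 exon blocks, 2427 nt). The first, the second and the third downstream neighbours are thus the rows with the shortest exonic lengths of the 8. No row of the files on either strand overlaps any of the 8.

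RefSeq gives Apoe 3 start sites in GRCr8, and the 250 bases before the first 2 are shown because the results turn on Apoe. Capitals mark GGGCGG on either strand, the letters bound by Sp1-type factors; TATAA and CCAAT were searched on both strands as well. Coordinates are GRCr8, minus strand, and differ from those of the deposited files.
Apoe start 1, chr1:88485817-88486066: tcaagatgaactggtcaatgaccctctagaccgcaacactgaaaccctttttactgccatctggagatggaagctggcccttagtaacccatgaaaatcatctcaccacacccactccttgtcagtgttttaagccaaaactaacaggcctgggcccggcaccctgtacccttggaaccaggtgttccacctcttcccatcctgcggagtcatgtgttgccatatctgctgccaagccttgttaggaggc
Apoe start 2, chr1:88484700-88484949: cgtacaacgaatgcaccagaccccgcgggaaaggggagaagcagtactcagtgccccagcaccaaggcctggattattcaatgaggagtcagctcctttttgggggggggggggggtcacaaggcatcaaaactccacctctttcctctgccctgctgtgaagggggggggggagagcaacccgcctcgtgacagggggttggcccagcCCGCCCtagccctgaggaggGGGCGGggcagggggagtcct
The first window held none of the 3 motifs and had a GC content of 51.6%. The second held GGGCGG once on each strand, did not hold the others, and had a GC content of 64.4%. Its start lies 1117 bases downstream of the first, and the third start lies a further 179 bases downstream. The window before the third start, which overlaps the second window and is not printed, held GGGCGG once on each strand, TATAA once on the strand of the gene and CCAAT once on the opposite strand, the last 2 overlapping, with a GC content of 60.8%. Of 33469 start windows of the same length, 30.5% held GGGCGG, 24% TATAA and 34% CCAAT. These letters are a description of the sequence. The reads behind a row are not assigned to a start site, and the counts do not show which start was used.

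Library totals ran from 7871347 to 16874438 counts, with 4813 counts or more on the 8 rows together in each library. The LAP+/OC2+ libraries stood apart: mitochondrial features took 38.9% to 78.6% of their counts, against 0.57% to 10.3% in the other groups, and left them 1917734 to 5045098 nuclear counts. Apoe had 6250471 counts over all libraries, 90.8% of the counts of the 8 rows and rank 5 among all rows. Values below are CPM, counts per 1000000 counts of library sizes scaled by the trimmed mean of M-values (TMM). Where levels of different rows are compared, CPM is divided by exonic length in kilobases.

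Per kilobase, Apoe was the highest of the 8 rows in every group. In adult cells it stood at 14408 ± 2057 CPM per kilobase (SD, n = 4), followed by the first downstream neighbour at 5616 ± 548. The third and second downstream neighbours came next at 1160 ± 165 and 507 ± 113. Libraries of these 4 rows did not overlap, so their order in adult cells exceeded the spread. Far below them were the fourth downstream neighbour at 62.0 ± 4.42, the second upstream at 55.8 ± 8.60 and the first upstream at 30.7 ± 3.51. The libraries of the fourth downstream and second upstream neighbours overlapped, so these are not ordered. Lowest was the third upstream neighbour, at 2.14 ± 0.40 CPM per kilobase.

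The order of Apoe, then the first, the third and the second downstream neighbours, was the same by mean in all 6 groups. In LAP+ cells the libraries of the third and second overlapped, at 696 ± 72.3 and 539 ± 152 CPM per kilobase (n = 4). In LAP+/OC2+ cells the first also overlapped with the third, at 142 ± 72.4 and 65.9 ± 30.3. Within the captured tissue, host liver had 23566 ± 3930 CPM per kilobase of Apoe (n = 5) and 1548 ± 309 of the first downstream neighbour. Colonies had 20695 ± 1246 and 1248 ± 384. Below Apoe and the first downstream neighbour, the colony libraries of each row in the order overlapped with those of the next, except for the third upstream row at the end.

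**Figure D1:**
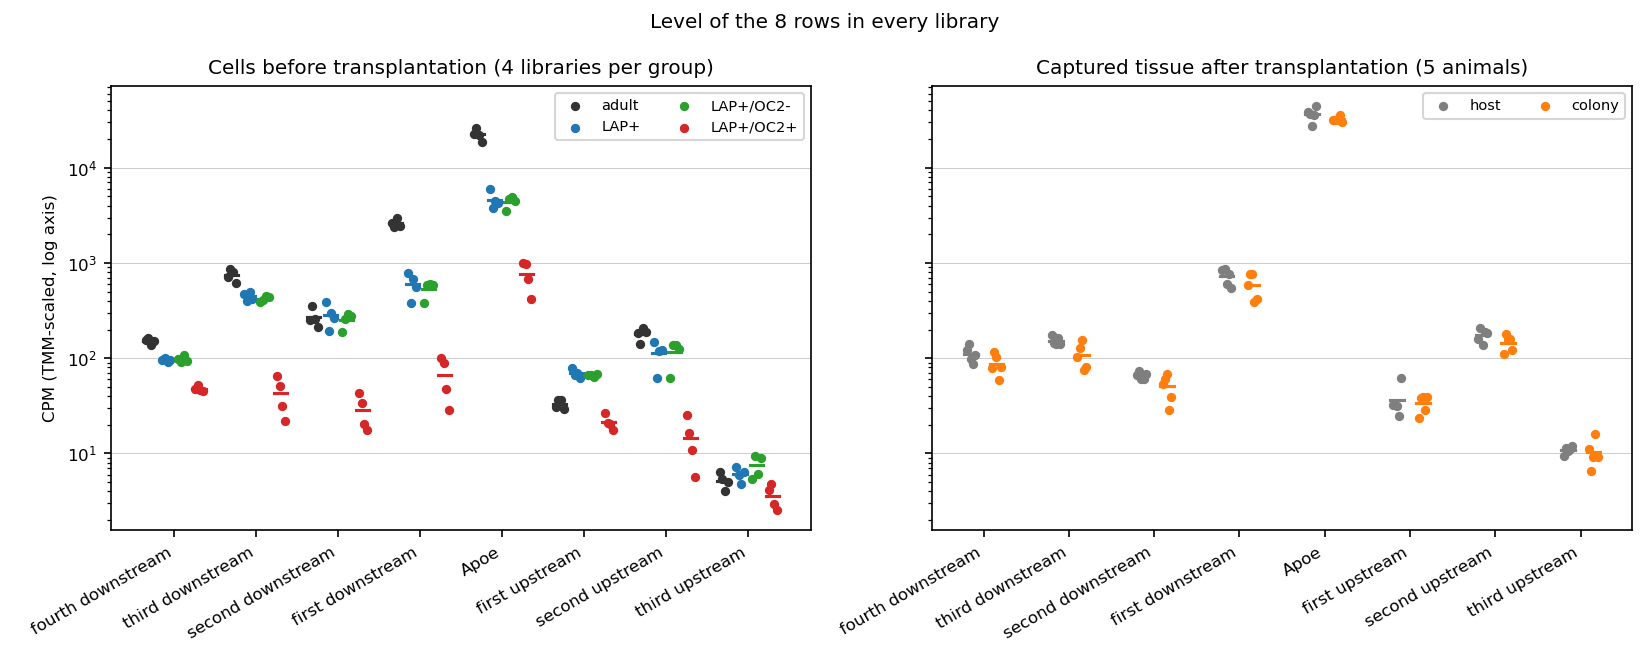
CPM of the 8 rows in each library on a log axis, ordered by position from the fourth downstream neighbour to the third upstream one, with a bar at each group mean. Left, the 4 groups before transplantation; right, host and colony. LAP+/OC2+ libraries lie below the LAP+/OC2- libraries for every row, while the first upstream row is higher in LAP+ and LAP+/OC2- cells than in adult cells. Levels on the left and right come from different kits and are not compared.

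Apoe and its first downstream neighbour were the rows with the largest fall in fetal LAP+ cells against adult cells. Apoe read 22612, 26400, 22013 and 18594 CPM in the 4 adult libraries and 5987, 3768, 4510 and 4288 in the LAP+ libraries. The highest LAP+ library lay below the lowest adult one. Its log2 difference came to -2.27 (SE 0.27, edgeR quasi-likelihood adjusted p = 2.0e-06), a 4.83-fold lower level. The first downstream neighbour read 2653, 2408, 2972 and 2457 CPM in adult cells and 782, 382, 674 and 558 in LAP+ cells, again without overlap. It differed by -2.13 (SE 0.33, adjusted p = 2.9e-05), which is within the standard errors of the Apoe difference.

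The downstream rows did not move as a block. The third downstream neighbour fell from 714, 864, 801 and 619 CPM in adult cells to 477, 402, 501 and 419 in LAP+ cells, a log2 difference of -0.74 (SE 0.24, edgeR adjusted p = 0.015). The fourth fell from 152 ± 10.9 to 95.6 ± 4.36 CPM, a difference of -0.67 (SE 0.11, adjusted p = 4.1e-05). Both differences were smaller than that of Apoe, and both lost their call when libraries were scaled by nuclear totals alone (adjusted p = 0.29 and 0.098). The second downstream neighbour, which lies between the first and the third, did not pass the test. It read 255, 353, 256 and 211 CPM in adult cells and 386, 192, 301 and 262 in LAP+ cells, groups that overlap throughout. Its log2 difference was 0.09 (SE 0.26, adjusted p = 0.80).

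Upstream, the nearest row went the other way. The first upstream neighbour rose from 30.8, 36.7, 36.6 and 29.4 CPM in adult cells to 78.6, 66.8, 69.1 and 62.3 in LAP+ cells, with no overlap. This gave a log2 difference of 1.05 (SE 0.13, adjusted p = 2.8e-06 by edgeR), a 2.07-fold higher level. Apoe and this row are 1096 nt apart and annotated on the same strand. The second upstream neighbour read 142 to 208 CPM in adult cells and 61.9 to 148 in LAP+ cells, overlapping groups, with a difference of -0.68 (SE 0.35, adjusted p = 0.10). It passed with limma-voom (adjusted p = 0.012) and when only the groups compared were fitted (0.038). The third upstream neighbour stood at 5.19 ± 0.97 and 6.01 ± 1.01 CPM and differed by 0.21 (SE 0.23, adjusted p = 0.45); scaled by nuclear totals alone it was called higher, at 0.64 (adjusted p = 0.032).

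In LAP+ against adult cells, 5 of the 8 rows passed an adjusted p of 0.05, 4 lower and 1 higher. Of all 13818 features tested 60.3% passed, 28.5% lower and 31.7% higher, so the number of calls among the 8 rows was close to that background. The groups did not overlap for the same 5 rows; over all features this held for 27% lower and 29.2% higher. The median log2 difference of the 8 rows was -0.68, against 0.06 over all features. Scaling by nuclear totals alone moves the median of all features to 0.50 in this comparison, and the changes named above that survive it are those of Apoe, the first downstream and the first upstream neighbour.

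LAP+/OC2- cells differed from adult cells in the same 5 rows. Apoe read 3546, 4713, 4918 and 4492 CPM and lay below adult cells by a log2 difference of -2.34 (SE 0.27, edgeR adjusted p = 1.4e-06). Next to it, the first downstream neighbour read 381, 581, 598 and 593 CPM, a difference of -2.28 (SE 0.33, adjusted p = 1.5e-05). All of these libraries lay below those of adult cells. The third and the fourth downstream neighbours differed by -0.83 (adjusted p = 0.0079) and -0.64 (adjusted p = 6.2e-05), and nuclear totals alone ended both calls (0.13 and 0.065). Higher again was the first upstream neighbour, at 66.0, 66.8, 63.4 and 67.8 CPM, a difference of 0.98 (SE 0.13, adjusted p = 5.5e-06).

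The other 3 rows did not pass in that comparison. The second downstream neighbour differed by -0.08 (SE 0.26, edgeR adjusted p = 0.81), and its sign turned with nuclear totals alone (0.28), with limma-voom (0.11), and without adult library 2 (0.06) or LAP+/OC2- library 1 (0.04). The second upstream neighbour differed by -0.65 (adjusted p = 0.12), with all 4 libraries below adult ones, and passed with limma-voom (0.019) and when only the groups compared were fitted (0.041). The third upstream neighbour differed by 0.53 (adjusted p = 0.062) and passed with limma-voom (0.019), without LAP+/OC2- library 1 (0.029) and with nuclear totals alone (0.0046). The 5 calls among 8 rows compare with 59.3% of all features, 28.4% lower and 30.9% higher. Adult libraries served both comparisons, so their results are not independent of each other.

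LAP+/OC2- cells were not told apart from LAP+ cells at any of the 8 rows. The largest log2 differences were 0.31 (SE 0.23) at the third upstream neighbour, -0.17 (SE 0.26) at the second downstream one and -0.15 (SE 0.31) at the first. Apoe differed by -0.07 (SE 0.26). Every edgeR adjusted p was 1 and the groups overlapped at all 8 rows; 0 rows had an unadjusted p below 0.05. DESeq2 and limma-voom likewise called 0 of the 8. Over all features 0.391% passed (0.246% higher, 0.145% lower), 915 of 13818 were below an unadjusted 0.05, and the groups did not overlap at 2.16% higher and 1.32% lower. Standard errors ran from 0.11 at the fourth downstream neighbour to 0.35 at the second upstream one. With 0.391% of all features passing, log2 differences well above a row's standard error could have gone uncalled, at Apoe as at the others.

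**Figure D2:**
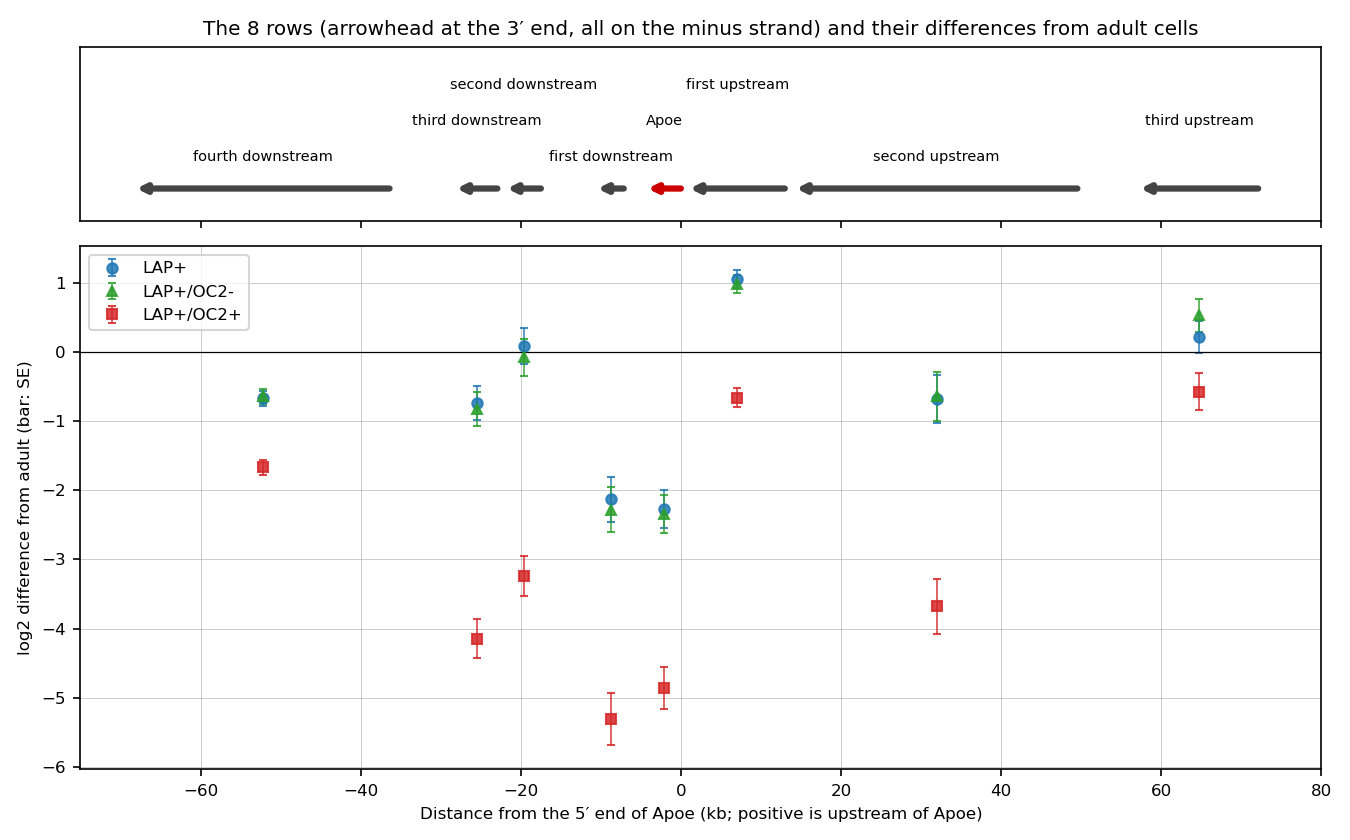
Top, the 8 rows drawn to scale along the chromosome with arrowheads at their 3′ ends and Apoe in red. Bottom, the fitted log2 difference from adult cells (bar: SE, 4 libraries per group) at the middle of each row, against distance from the 5′ end of Apoe in kilobases. LAP+ and LAP+/OC2- points lie close together at every row; Apoe and the first downstream row are lowest in all 3 sorts, and the first upstream row is above 0 in LAP+ and LAP+/OC2- cells and below 0 in LAP+/OC2+ cells.

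In the LAP+/OC2+ sort all 8 rows were lower than in the LAP+/OC2- sort. Apoe read 1004, 974, 686 and 414 CPM, all below the lowest LAP+/OC2- library of 3546. Its log2 difference was -2.52 (SE 0.27, adjusted p = 4.5e-07 by edgeR), a 5.74-fold lower level. By estimate the 2 largest differences were at the third and the second downstream neighbour, but rows were not tested against each other. The third downstream neighbour fell from 388, 411, 453 and 438 CPM to 65.5, 51.3, 31.8 and 21.7, a difference of -3.32 (SE 0.27, adjusted p = 1.8e-08). The second fell from 189, 261, 290 and 279 CPM to 42.6, 33.9, 20.4 and 17.7, a difference of -3.16 (SE 0.29, adjusted p = 7.3e-08). This row was among those not called between adult and LAP+ cells. The first fell to 99.6, 89.7, 47.1 and 28.8 CPM, a difference of -3.03 (SE 0.34, adjusted p = 6.9e-07).

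The same sort was low upstream of Apoe as well. The second upstream neighbour fell from 61.6, 136, 137 and 126 CPM to 25.02, 16.4, 10.9 and 5.64, a log2 difference of -3.03 (SE 0.39, edgeR adjusted p = 3.4e-06). Nearer to Apoe, the first upstream neighbour read 26.3, 20.6, 20.6 and 17.5 CPM, a difference of -1.64 (SE 0.13, adjusted p = 2.0e-08). The smallest differences were at the 2 ends of the interval. The fourth downstream neighbour stood at 47.9 ± 2.93 CPM against 97.6 ± 7.78, a difference of -1.03 (SE 0.11, adjusted p = 3.3e-07). At the other end, the third upstream neighbour had 16 to 22 raw counts per LAP+/OC2+ library; it differed by -1.10 (SE 0.26, adjusted p = 0.0013) and was not called with nuclear totals alone (-0.62, adjusted p = 0.055).

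All 8 rows were thus lower, and at each of them the LAP+/OC2+ libraries lay below every LAP+/OC2- library. Over all features 67.5% passed, 36.6% lower, and the groups did not overlap at 32.9% lower and 26.4% higher. The median log2 difference was -2.77 over the 8 rows and -0.18 over all features, and nuclear totals alone moved the second to 0.35. Against LAP+ cells the 8 rows were also lower, beside 35.9% of all features lower and 67.8% passed in all. Apoe differed by -2.59 (SE 0.27, edgeR adjusted p = 3.5e-07) and the third downstream neighbour by -3.41 (SE 0.27). In that comparison the third upstream neighbour overlapped and lost its call without LAP+/OC2+ library 4 (adjusted p = 0.054) and with nuclear totals alone (0.25).

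The high mitochondrial share moves with this sort. In the LAP+/OC2+ libraries with 78.6%, 73.7%, 57.6% and 38.9% mitochondrial counts, Apoe took 0.203%, 0.176%, 0.126% and 0.071% of the nuclear counts. The library with the lowest mitochondrial share was thus the lowest in Apoe. Raw Apoe counts were 3892, 4105, 4205 and 3602, a narrow range beside a nuclear depth from 1917734 to 5045098. LAP+/OC2- cells, with 4.27% to 5.92% mitochondrial counts, had 0.518% to 0.647% Apoe. With the mitochondrial features removed before scaling, every result for the 8 rows kept its direction and its side of the threshold; the part of RNA quality or of other cells in the sort was not tested.

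Set against adult cells, the LAP+/OC2+ sort was lower at 7 of the 8 rows. Apoe showed a log2 difference of -4.86 (SE 0.30, edgeR adjusted p = 2.6e-10), a 29.1-fold difference. By estimate the difference at the first downstream neighbour was larger, -5.31 (SE 0.38, adjusted p = 1.2e-09), or 39.7-fold. It was not tested against that of Apoe. The third and second downstream neighbours differed by -4.15 and -3.24, the second upstream by -3.68 and the fourth downstream by -1.67. The first upstream neighbour differed by -0.66 (SE 0.13, adjusted p = 2.3e-04), but nuclear totals alone turned it to 0.20 (adjusted p = 0.26). The third upstream neighbour, at 2.53 to 4.75 CPM against 4.02 to 6.37, did not pass (-0.57, adjusted p = 0.055) and its sign turned as well (0.28). It was called lower with no low-count filter (edgeR adjusted p = 0.024). The same held without adult library 3 (0.026), LAP+/OC2+ library 1 (0.039) or LAP+/OC2+ library 2 (0.021). Over all features 77.5% passed, 38.6% lower.

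The mean of the 3 fetal sorts gives each sort equal weight. Against adult cells it was lower at 6 rows, higher at the first upstream neighbour (0.46, SE 0.11, edgeR adjusted p = 0.0011) and not called at the third upstream one (0.05, adjusted p = 0.81). Apoe differed by -3.16 (SE 0.19, adjusted p = 2.1e-10) and the first downstream neighbour by -3.24 (SE 0.23). Of all features 72.4% passed, 35.3% lower and 37.1% higher. In this mean the second downstream neighbour was called lower (-1.08, adjusted p = 1.6e-04) only through the LAP+/OC2+ libraries: without them it stood at 0.005 (adjusted p = 0.98), while Apoe stood at -2.31 and the first upstream neighbour at 1.02. With nuclear totals alone the third upstream neighbour was called higher (0.60, adjusted p = 0.016).

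Counts of a row per 1000 Apoe counts of the same library do not depend on library scaling, and they separate the first downstream neighbour from the rest. They are not divided by length and serve only to compare groups. The first downstream neighbour had 119 ± 20.04 counts per 1000 Apoe counts in adult cells (SD, n = 4), 128 ± 19.9 in LAP+ and 121 ± 10.1 in LAP+/OC2- cells. Its adult range of 91.2 to 135 overlapped with those of LAP+ cells, 101 to 150, and LAP+/OC2- cells, 108 to 132. Across adult, LAP+ and LAP+/OC2- cells this pair of rows thus kept nearly the same proportion while Apoe fell several-fold. In LAP+/OC2+ cells the ratio was 82.3 ± 15.6, between 68.7 and 99.2. These libraries lay below every LAP+ and LAP+/OC2- library and overlapped with the adult range.

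The second downstream neighbour showed another pattern. It had 11.9 ± 0.99 counts per 1000 Apoe counts in adult cells, 60.9 ± 6.92 in LAP+ cells, 57.4 ± 3.86 in LAP+/OC2- cells and 37.4 ± 6.30 in LAP+/OC2+ cells. The third had 33.5 ± 2.05, 98.7 ± 13.9, 96.5 ± 9.55 and 54.2 ± 7.94 in the same order. Both were therefore highest relative to Apoe in LAP+ and LAP+/OC2- cells and lowest in adult cells. The first upstream neighbour rose from 1.499 ± 0.147 in adult cells to 15.2 ± 1.92 in LAP+ cells, 15.2 ± 2.45 in LAP+/OC2- cells and 29.9 ± 8.96 in LAP+/OC2+ cells. For the fourth downstream neighbour the ratios were 6.88 ± 0.95, 21.3 ± 4.55, 22.4 ± 3.49 and 69.5 ± 28.0. Both ratios were highest in LAP+/OC2+ cells, where Apoe, their denominator, was lowest. In CPM these 2 rows were themselves lowest there among the sorted cells, at 21.2 ± 3.68 and 47.9 ± 2.93.

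Toward the upstream end, the second upstream neighbour had 8.26 ± 2.08 counts per 1000 Apoe counts in adult cells, 24.0 ± 5.24 in LAP+ cells, 25.6 ± 5.47 in LAP+/OC2- cells and 17.8 ± 4.93 in LAP+/OC2+ cells. The third had 0.23 ± 0.05, 1.32 ± 0.24, 1.69 ± 0.37 and 4.84 ± 0.90. Adult libraries lay below all fetal libraries for every neighbour except the first downstream one.

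**Figure D3:**
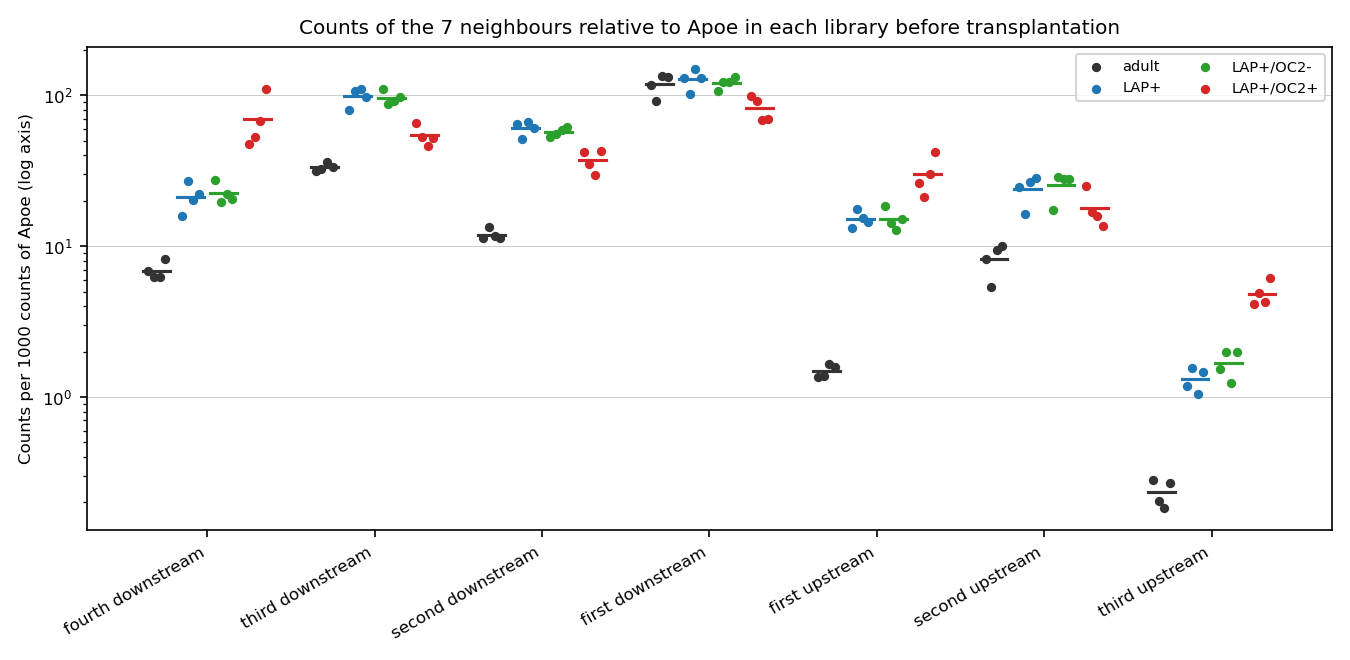
Counts of each of the 7 neighbours per 1000 counts of Apoe in the 16 libraries before transplantation, on a log axis, with a bar at each group mean. The first downstream row stays between 68.7 and 150 in every library; the first and the third upstream rows and the fourth downstream row climb from adult to LAP+/OC2+ cells, and the second and the third downstream rows are highest in LAP+ and LAP+/OC2- cells.

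After transplantation, Apoe was among the most abundant nuclear transcripts in colony and host alike. It ranked 4 by nuclear counts in each of the 10 captured libraries, with 2.98% to 4.06% of them. Host liver read 38783, 36626, 27353, 36185 and 44277 CPM in animals 242, 243, 246, 248 and 249. Colonies of the same animals read 31966, 31573, 31438, 35496 and 30429 CPM. The colony values lay inside the host range. With the animal as a block the log2 difference was -0.17 (SE 0.14, edgeR adjusted p = 0.47), and it turned to 0.06 with nuclear totals alone.

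None of the 8 rows passed the test between colony and host. The third downstream neighbour came nearest, at 173, 144, 142, 162 and 140 CPM in host and 103, 127, 156, 76.0 and 81.6 in colony. Its log2 difference was -0.53 (SE 0.15, edgeR adjusted p = 0.093). The second downstream neighbour read 60.5 to 73.1 CPM in host and 28.8 to 68.9 in colony, a difference of -0.44 (SE 0.14, adjusted p = 0.13). Colony libraries of these rows spread more widely than host libraries and overlapped with them. The first downstream neighbour differed by -0.34 (SE 0.14, adjusted p = 0.20), the fourth by -0.36 (SE 0.11, adjusted p = 0.12) and the second upstream one by -0.28 (SE 0.12, adjusted p = 0.20). The first and the third upstream neighbours differed by -0.08 (adjusted p = 0.78) and -0.13 (adjusted p = 0.75), and both turned positive with nuclear totals alone (0.15 and 0.10).

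Apoe, the 4 downstream neighbours and the second upstream one were lower in colony in 4 of 5 animals, and for all 6 the exception was animal 246. There colony exceeded host by 0.06 to 0.34 log2 units. Animal 248 showed the deepest gaps at the first, second and the third downstream neighbours, -0.99, -1.07 and -1.10, beside -0.03 at Apoe. The first upstream neighbour was higher in colony in 3 animals and lower in 2. The third upstream one was higher in 2 and lower in 3.

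Over all 18632 features, 0.0322% passed between colony and host (0.0215% higher, 0.0107% lower), 3780 were below an unadjusted 0.05, and the groups did not overlap at 2.25% higher and 0.462% lower. Of the 8 rows, the 4 downstream neighbours and the second upstream one were below that unadjusted level, 5 rows in all, and 0 of the 8 had groups that did not overlap. The median log2 difference was -0.31 for the 8 rows and 0.05 for all features. The count of calls depends on the method and on animal 246: without that animal 5 rows were called lower (2058 of 18709 features), with limma-voom 6 (3254 features), with no low-count filter 2 (751) and with DESeq2 1 (723).

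**Figure D4:**
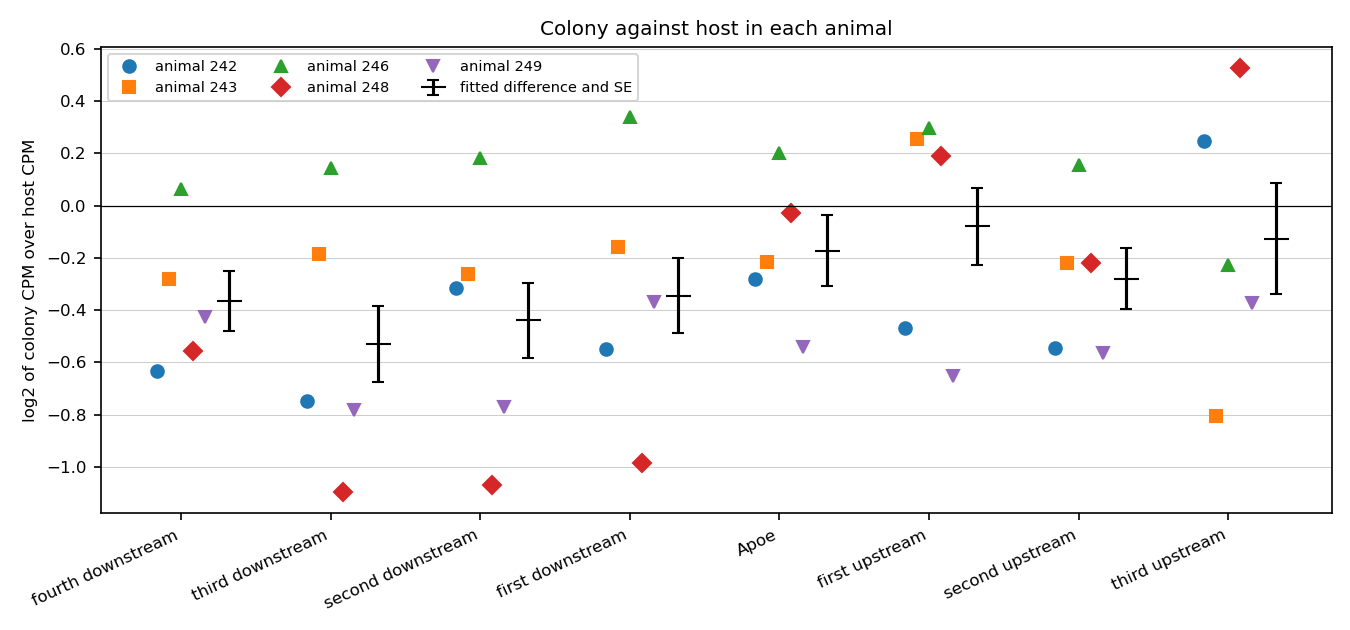
Log2 of colony CPM over host CPM for the 8 rows in each of the 5 animals (symbols), with the fitted difference and its SE (black). Animal 246 lies above 0 at Apoe, the 4 downstream rows and the second upstream row, where the other 4 animals lie below 0.

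The difference between colony and host was set against that between fetal and adult cells within 1 fit of all 26 libraries. At Apoe the colony-host difference exceeded the fetal-adult difference by 3.00 log2 units (SE 0.30, edgeR adjusted p = 8.9e-09), and at the first downstream neighbour by 2.91 (SE 0.35, adjusted p = 2.6e-07). The fetal-adult difference of these 2 rows was thus not seen at that size between colony and host. The second upstream and the third downstream neighbours differed by 1.40 (adjusted p = 0.0057) and 1.38 (adjusted p = 4.1e-04), and the fourth downstream one by 0.64 (adjusted p = 0.0017). Upstream of Apoe, the first neighbour differed the other way, by -0.52 (adjusted p = 0.037), being called higher in the fetal mean and not called in colony. The second downstream and the third upstream neighbours did not pass (0.65, adjusted p = 0.11, and -0.17, adjusted p = 0.82).

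Of all 20785 features 38% passed this test, 19% higher and 18.9% lower, beside 5 rows higher and 1 lower here. The contrast uses the same libraries as the comparisons above, and kit and capture change with the stage, so stage and kit cannot be told apart in it. Without the LAP+/OC2+ libraries 3 rows were called, beside 6985 of 20967 features. These rows were Apoe at 2.12, the first downstream neighbour at 1.85 and the first upstream one at -1.11. The second downstream neighbour turned to -0.46 (edgeR adjusted p = 0.22). The call of the first upstream neighbour was lost without animal 242 (adjusted p = 0.11) or 249 (0.14), without the animal block (0.082) and without a low-count filter (0.065), and nuclear totals alone ended that of the fourth downstream neighbour (0.12).

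The likeness of other features to Apoe was measured as Pearson's r of log2(CPM + 1) over the 16 libraries before transplantation. The libraries share group and depth, so r is a description. Among the neighbours, the first downstream one had r = 0.99 and rank 32 among 13817 features. The fourth downstream neighbour followed at 0.98 (rank 249), the third at 0.93 (rank 1075), the second upstream at 0.91 (rank 1322) and the second downstream at 0.84 (rank 2334). The third and first upstream neighbours had 0.48 (rank 5102) and 0.38 (rank 5583). The 2 rows next to Apoe were thus at opposite ends of this order.

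The closest patterns outside the interval were ENSRNOG00000001385 on chromosome 12, at 41600005 to 41619186, and ENSRNOG00000008988 on chromosome 7, at 123651827 to 123655896, with r just under 1. The former had means of 169, 56.4, 56.7 and 17.9 CPM in the adult, LAP+, LAP+/OC2- and LAP+/OC2+ groups. The latter had 1449, 198, 187 and 22.1. Over the 12 libraries without LAP+/OC2+, r with Apoe was 0.99 for the first downstream neighbour, 0.18 for the second downstream and -0.93 for the first upstream one. In the 10 captured libraries the first to the fourth downstream neighbours correlated with one another at 0.76 to 0.91, but with Apoe at 0.13 to 0.26 only.

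Beyond the interval, the 5 nearest tested rows on each side moved in both directions. In the fetal mean against adult cells 2 were higher and 1 lower on the low-coordinate side, and 1 higher and 2 lower on the other. Between the LAP+/OC2+ and LAP+/OC2- sorts 2 were higher and 1 lower on the first side, and 2 higher and 2 lower on the second. The common lower direction of the 8 rows in LAP+/OC2+ cells was thus not shared by all rows around them.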

How the data were processed

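RNA-seq counts of 26 rat libraries in 6 groups were used. The values are raw counts per feature as deposited by the authors, with exon coordinates and lengths per the file headers. The submitters' processing notes name bcl2fastq 2.17, Trimmomatic 0.36, STAR 2.5.2b, Subread 1.5.2 and featureCounts; genome build, annotation release, strand setting and the choice of captured regions are not stated in the sources used here. Antisense reads therefore cannot be told apart, and paralogs may share reads.

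The test was edgeR 4.0.16 under R 4.3.3 (TMM, filterByExpr by group, robust quasi-likelihood) at an adjusted p of 0.05 (Benjamini-Hochberg, all features tested). The 16 libraries before transplantation formed 1 fit without a block. Colony and host formed another of 10 libraries with the animal as block, and the difference of differences used all 26. All 8 rows passed the low-count filter in each fit. SE is the log2 difference divided by the square root of F. The p-values measure the spread between the samples called biological replicates in the labels.

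All 8 rows are named in every comparison. The rows, the lists and the tests were chosen with earlier results of these data known. The labels give host and colony the same animals; their deviations from group means correlated at -0.24 to 0.48 within animals, over 0.1 in 3 of 5. In all 44 replicate pairs the counts differed by more than sampling noise (4.95 to 260 as chi-square over its degrees of freedom). The edgeR test was run on simulated data for 4 of the 9 comparisons, and the others were not simulated. Alternatives were RLE size factors, DESeq2 1.42.0, limma-voom (limma 3.58.1), other filters, removal of mitochondrial features, other blocks and leaving out each library or animal. Nuclear totals without scaling factors, a filter by the design and a fetal mean without LAP+/OC2+ were added after seeing the data. Promoter sequences are from RefSeq (GRCr8).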

Additional observations from a re-analysis of the deposited data

Results flagged for a closer look

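The difference between colony and host departed from that between fetal and adult cells at 6 of the 8 rows by the test of the difference itself (edgeR, all 26 libraries). The log2 values were 3.00 at Apoe, 2.91 at the first downstream neighbour, 1.40 at the second upstream, 1.38 at the third downstream, 0.64 at the fourth downstream and -0.52 at the first upstream neighbour. The same test passed 38% of all 20785 features, 19% higher and 18.9% lower. Without the LAP+/OC2+ libraries 3 of the 8 rows were called, beside 6985 of 20967 features. The rows at 1.40, 1.38 and 0.64 lost their calls there, at 0.37, 0.23 and 0.27 (edgeR adjusted p = 0.43, 0.45 and 0.17). The rows at 3.00, 2.91 and -0.52 stayed called, at 2.12, 1.85 and -1.11. Kit and capture change with the stage and cannot be told apart from it.

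In 3 of 48 sets of libraries, each 1 row in 1 group, a single library lay far from the others of its group; chance marks about 1 in 20 sets. LAP+/OC2- library 1 was the lowest at the first downstream neighbour (381 CPM) and at the second upstream neighbour (61.6 CPM). Host library 249 was the highest at the first upstream neighbour (61.8 CPM).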

How the results depend on the processing

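Counts of the 8 rows called were recomputed under 154 alternatives over the 9 comparisons, and 149 stayed within 1.5 times the reported count. Between colony and host the reported 0 became 2 with no low-count filter, 1 with DESeq2 and 6 with limma-voom; leaving out 1 animal at a time gave 0 to 5, with 5 only without animal 246. A low-count filter by the design, added after seeing the data, tested 22303 features, called 262 and still 0 of the 8 rows. The difference of differences fell from 6 to 3 calls without the LAP+/OC2+ libraries, also added later, where 6985 of 20967 features were called. Of 46 called results for single rows, 34 kept direction and call in every alternative run. The cause of these changes was not tested. Depth limits the third upstream neighbour most, with 16 to 22 counts per LAP+/OC2+ library.

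Signs turned in 35 of 1232 alternatives for single rows, all but 2 at results that had not passed. The 2 were the first upstream neighbour in LAP+/OC2+ against adult cells (0.20 with nuclear totals alone) and the second downstream one in the fetal mean (0.005 without LAP+/OC2+, which also turned its difference of differences to -0.46). Nuclear totals alone also gave 0.28 for the third upstream neighbour in LAP+/OC2+ and for the second downstream one in LAP+/OC2- against adult cells, -0.0315 and -0.0196 for the fourth downstream and second upstream neighbours between LAP+/OC2- and LAP+ cells, and 0.058, 0.15 and 0.10 for Apoe and the first and the third upstream neighbours between colony and host. Limma-voom turned the second downstream neighbour in LAP+/OC2- against adult cells (0.11) and Apoe between LAP+/OC2- and LAP+ cells (0.0315), and a stricter filter the first upstream neighbour between colony and host (0.015). With no low-count filter the third upstream neighbour in the fetal mean gave -0.0044.

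The other turns, apart from 1 under the replicate block, came from leaving out 1 library or animal. Across these the third upstream neighbour ran from -0.077 to 0.14 in the fetal mean, from -0.29 to 0.0095 in colony against host and from -0.32 to 0.006 in the difference of differences. The second downstream neighbour ran from -0.093 to 0.24 in LAP+ and from -0.18 to 0.060 in LAP+/OC2- against adult cells, and the first upstream one from -0.21 to 0.073 in colony against host. Between LAP+/OC2- and LAP+ cells the ranges were -0.16 to 0.0785 for Apoe, -0.32 to 0.0025, -0.31 to 0.016 and -0.025 to 0.060 for the first, second and the fourth downstream neighbours, and -0.11 to 0.0006 and -0.17 to 0.24 for the first and second upstream ones.

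The labels do not say whether equal numbers before transplantation share an animal or litter. Deviations of equally numbered libraries correlated at -0.51 to 0.21 (21 pairs, over 0.1 in 3). This cannot decide the question, since colony and host of the same animal gave r from -0.24 to 0.48. The replicate block left the calls at 7 in the fetal mean against adult and 8 between the LAP+/OC2+ and LAP+/OC2- sorts, and turned the second upstream neighbour between LAP+/OC2- and LAP+ cells to -0.0443. With no replicate block, colony against host gave 0 rows and the difference of differences 5. Nuclear totals without scaling factors moved the median log2 difference of all features from 0.06 to 0.63 in the fetal mean, from -0.02 to 0.89 in LAP+/OC2+ and from 0.06 to 0.44 in LAP+/OC2- against adult, from -0.10 to 0.37 in LAP+/OC2+ against LAP+, from 0.05 to 0.28 in colony against host and from 0.05 to -0.22 in the difference of differences.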
